A study of Mus musculus with 18 samples.

Results

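The comparison described here sets germ cells of juvenile mouse testes against embryonic stem (ES) cells that carry the same reporter for Dazl. It uses 4 of the 18 samples of the series: both samples of Dazl-GFP-positive cells sorted from testes of mice aged 7 to 11 days, and both samples of undifferentiated Dazl-GFP ES cells sorted for the green fluorescent protein (GFP). All 4 samples are labelled male and of mixed C57BL/6 and 129SV background, and the Dazl-GFP reporter is carried by both groups. The ES cells were grown with leukaemia inhibitory factor on feeder fibroblasts, whereas the testis cells were released from the gonad by enzymes. The labels do not say how many animals or cultures stand behind a sample, or on which day within the age range a testis sample was taken. P-values thus measure only the spread between replicate samples, which may be technical. That spread was estimated over all 18 samples of the series and not over the 4 compared alone. The samples were chosen by their labelled group, not by a measured value. A further pair of samples, Dazl-GFP-positive germ cells from gonads at E13.5 (the label's embryonic day), serves as a second point of reference for the juvenile cells.

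Germ cells are set aside in the early embryo as primordial germ cells (PGCs), which share much of the pluripotency network with ES cells and erase most of their DNA methylation. In the testis they settle as spermatogonia, of which some act as stem cells and others respond to retinoic acid, express Stra8 and enter meiosis. In the first wave of spermatogenesis, which runs in juvenile mice, spermatogonia and the first meiotic cells are present before any spermatid has formed. Dazl, the RNA-binding protein whose promoter drives the reporter, and Ddx4, an RNA helicase of germ cell granules, mark germ cells from the gonadal stage onward.

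RNA was measured on Agilent one-colour arrays. A level is the log2 of a gene's signal over the 75th percentile of its array, and a change is the level in juvenile testis minus the level in Dazl-GFP-positive ES cells, with its standard error from limma fitted to all 18 arrays in 9 groups. The 75th percentiles were 474 and 435 in the juvenile samples, against 112 and 103 in the ES samples, and 64.6 and 68.9% of spots were well above background on the juvenile arrays, against 50.6 and 55.0% on the ES arrays. Levels of the 2 juvenile arrays correlated at 0.967 across genes, and those of the 2 ES arrays at 0.988. Both juvenile samples and both E13.5 samples shared 1 slide, and the ES samples lay on 2 other slides scanned on other days. No slide thus holds both groups, slide or scan day and group cannot be told apart within any slide, and slide could enter only as a random block. The library labelled E13.5 replicate 1 had no Y-linked signal although it is labelled male, so measured differences from E13.5 are given with and without it.

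The reporter gene and the germ cell marker were both high in the sorted testis cells. Dazl stood at 4.79 and 4.98 in the juvenile samples and at 0.79 and 0.73 in the ES samples, a change of 4.12 ± 0.16 (adjusted p = 9.0e-09), which is 17.4-fold. Ddx4 stood at 4.47 and 4.89 in the juvenile samples and at 0.72 and 0.89 in the ES samples, a change of 3.87 ± 0.23 (adjusted p = 1.9e-07). For both genes the groups lay far apart beside the gap between replicates. In GFP-negative cells of the same ES line, Dazl stood at -3.29 and -3.42 and Ddx4 at 0.08 and 0.19, so the GFP-positive ES cells lay between these and the testis cells. In E13.5 germ cells the levels were 5.42 and 5.27 for Dazl and 5.59 and 4.98 for Ddx4. Other germ cell genes rose as well: Sycp3, of the synaptonemal complex, by 4.83 ± 0.80, Mael, of the piRNA pathway, by 5.96 ± 0.35, and Tex101, a germ cell surface glycoprotein, by 8.48 ± 1.15 (adjusted p = 3.9e-04, 1.9e-07 and 8.8e-05).

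The pluripotency markers went the other way. Pou5f1, which encodes Oct4, stood at -1.91 and 0.75 in juvenile testis, against 5.69 and 5.77 in ES cells, a change of -6.31 ± 0.62 (adjusted p = 8.6e-06). Sox2 and Nanog, its partners in the ES cell network, were not well above background on either juvenile array. Sox2 measured -7.29 and -6.43 in juvenile testis, against 4.32 and 4.41 in ES cells, and was at least 1070-fold lower (adjusted p = 3.2e-10). Nanog measured -7.48 and -8.00 in juvenile testis, against 2.54 and 2.67 in ES cells, and was at least 315-fold lower (adjusted p = 3.9e-08). Such bounds set the higher group's mean against, on each array, the gene's own level or the lowest level called above background. Zfp42, which encodes the ES cell protein Rex1, fell by 5.26 ± 0.41 but stayed measurable at 1.20 and 1.05 in juvenile testis, against 6.39 and 6.38 in ES cells. Both labels thus fit their defining markers.

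**Figure D1:**
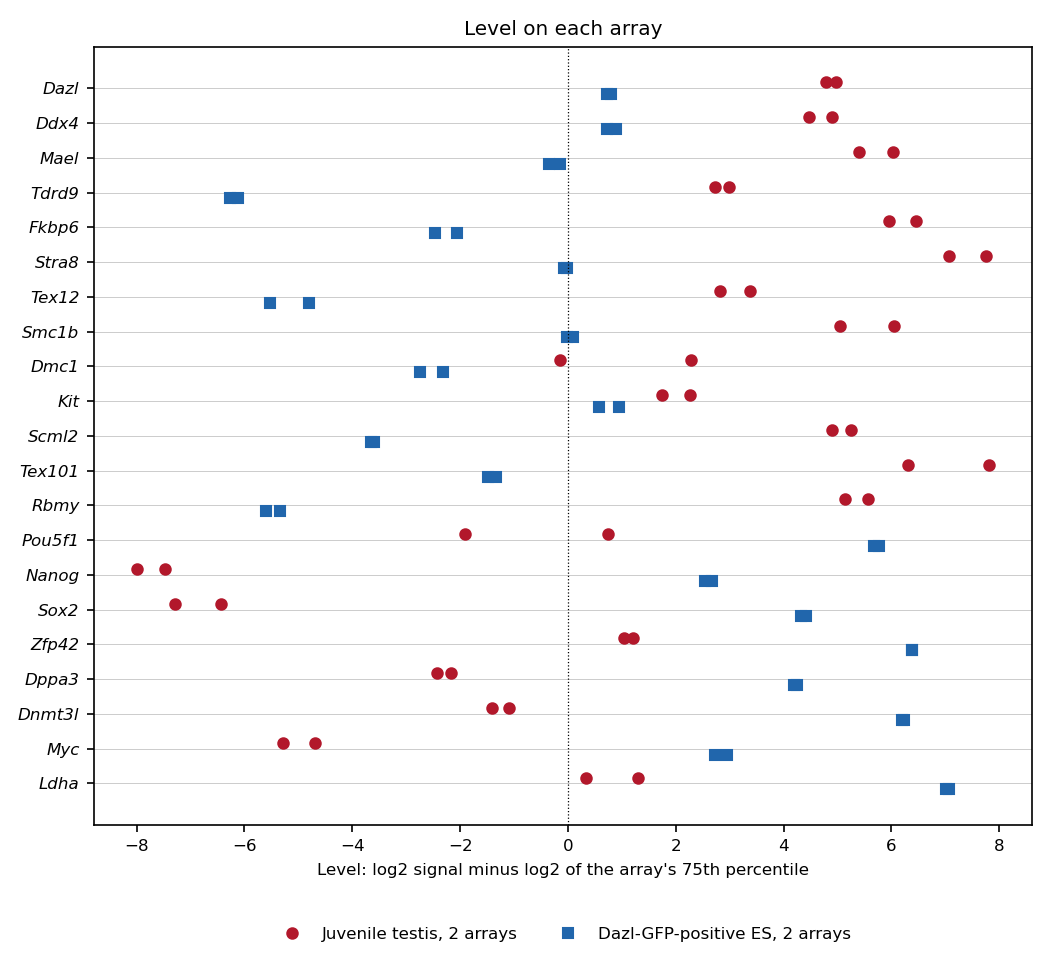
Level of 21 genes on each of the 4 arrays (log2 signal minus log2 of the array's 75th percentile), with the 2 juvenile testis arrays as circles above the 2 Dazl-GFP-positive ES arrays as squares. From Dazl to Rbmy every juvenile point lies to the right of both ES points, and from Pou5f1 to Ldha every juvenile point lies to the left.

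A majority of the genes on the array differed between the groups. Of 18876 genes tested, 10163 (53.8%) were called at an adjusted p under 0.05, 4972 of them higher in juvenile testis (26.3% of all genes) and 5191 lower (27.5%). With a change of at least 1 on the log2 scale as a further condition, 3936 genes (20.9%) were higher and 4188 (22.2%) lower. In the setting reported, these shares are the background for every gene list below. A list in which about 1 gene in 4 was called in each direction is like the array as a whole. The median change over all genes was -0.01, or -0.20 with genes below background in the lower group set at their bound. Background correction by normexp moved that median to -0.67 and the split to 3610 higher and 9378 lower, 27.8% of calls higher in place of 48.9%. List counts under normexp stand beside that split of 18876 genes, in which falls outnumber rises, and not beside the shares above. Among the genes named below, dim ones whose direction depends on normexp are marked where they occur. Among the 10163 calls of the setting reported were 200 of the 364 genes dim in both groups, whose fold was not measured. Where a gene had several probes, its brightest stands for it, and the range of changes over its probes is given in parentheses where it was wide. With slide as a random block 5066 genes were higher and 5272 lower.

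Of the 10 named genes with the largest rise, 6 lie on a sex chromosome. The 10 were Rbmy, Scml2, Tex101, Fkbp6, Taf7l, 1700018B24Rik, Egr4, Lonrf3, Mageb4 and Asb9. Rbmy, a Y-linked RNA-binding protein of germ cells, stood at 5.15 and 5.57 in juvenile testis, against -5.35 and -5.61 in ES cells, where it was not above background, and was at least 655-fold higher (adjusted p = 1.4e-05). Scml2, an X-linked Polycomb-related chromatin protein, stood at 4.89 and 5.25 in juvenile testis, against -3.65 and -3.59 in ES cells, a change of 8.70 ± 0.32 (adjusted p = 6.7e-09; 3 probes, 4.26 to 8.86). Taf7l, the germline paralogue of a TFIID subunit, rose by 8.37 ± 0.94, with the ES level above background on 1 of 2 arrays. Lonrf3 rose by 8.13 ± 0.37 (2 probes, 3.44 to 8.13) and Mageb4, of the MAGE family, by 7.95 ± 0.60, and Asb9 was at least 243-fold higher. Scml2, Taf7l, Lonrf3, Mageb4 and Asb9 all lie on the X chromosome. The autosomal members were Tex101, Fkbp6, the zinc finger gene Egr4 (8.14 ± 1.14) and 1700018B24Rik, which was at least 285-fold higher.

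Across the X chromosome as a whole, 42 of 551 tested genes with a gene name rose by at least 4 on the log2 scale, or 7.62%. On the autosomes 149 genes did so, or 1.0%, and the single autosomes ranged between 0.518 and 1.98%. The share of X-linked genes called higher by any amount was 32.3%, against 22.0 to 30.5% on single autosomes, and the share called lower was 34.7%, against 23.5 to 33.1%. The median change on the X chromosome was 0.05.

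The 10 named genes with the largest fall were Gtsf1l, Sox2, Trh, Ccl2, S100a4, Lefty1, Eprn, Thbs1, Enpp3 and Mmp3. Gtsf1l, a relative of the piRNA factor Gtsf1, stood at -5.96 and -5.45 in juvenile testis, against 4.75 and 4.70 in ES cells, a change of -10.43 ± 0.41, with 1 of 2 juvenile arrays above background. Lefty1, a secreted inhibitor of Nodal signalling, fell by 9.13 ± 1.69, and Trh, the thyrotropin-releasing hormone precursor, fell by 9.88 ± 0.65. The chemokine Ccl2 fell by 9.27 ± 0.51. For both Trh and Ccl2 1 of 2 juvenile arrays was above background. The calcium-binding protein S100a4 fell by 9.25 ± 0.64. The matrix glycoprotein gene Thbs1 and the matrix protease gene Mmp3 were at least 390-fold (3 probes, -8.61 to -6.47) and 353-fold lower in juvenile testis. Eprn was at least 478-fold lower (2 probes, -10.89 to -6.08). Enpp3, an ectoenzyme that cleaves nucleotides, stood at -7.71 and -5.52 in juvenile testis, with 1 of 2 arrays above background, against 1.90 and 1.83 in ES cells (change -8.48 ± 0.67 on the brightest of 3 probes, -8.48 to -1.05). Fibroblast markers were also higher in the ES samples, as given with the somatic markers further on, and their part in these falls was not tested.

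**Figure D2:**
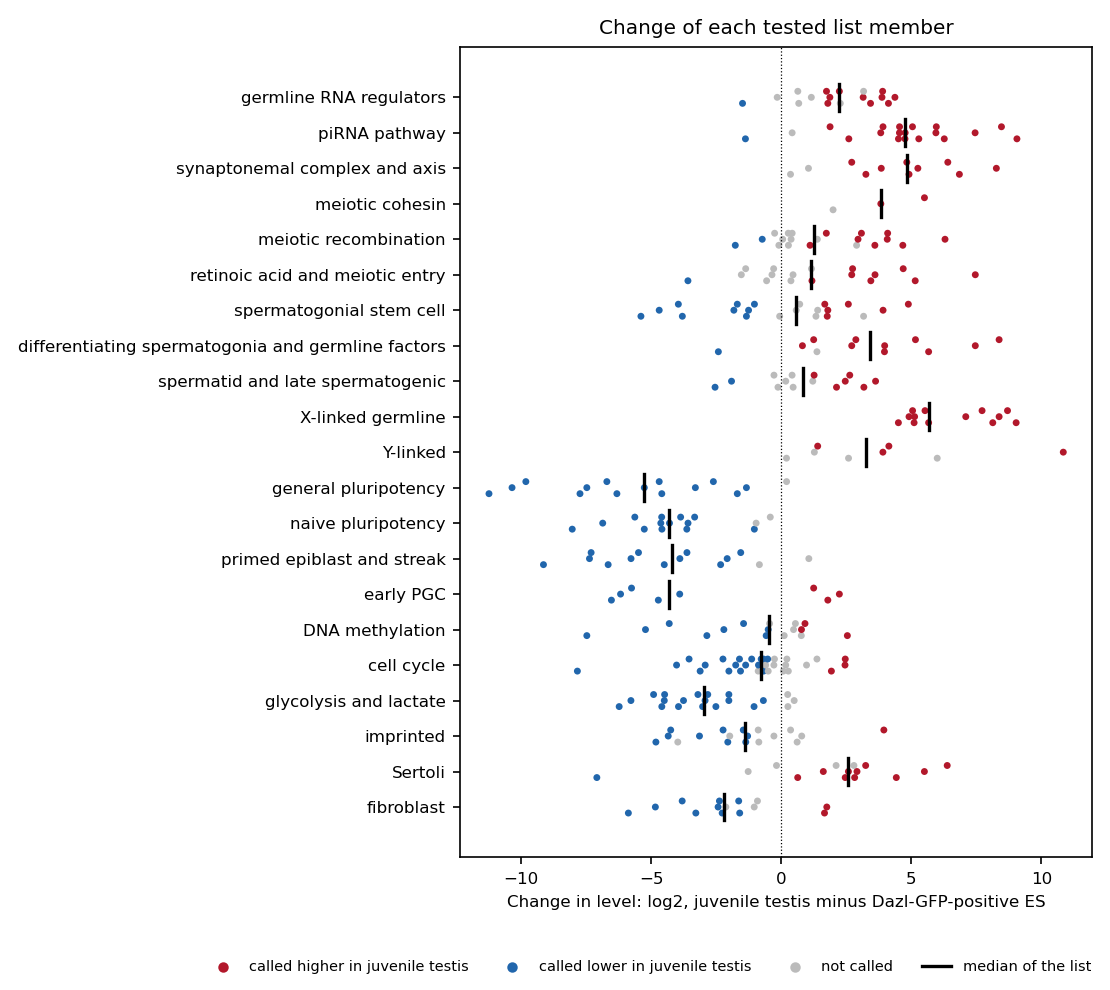
Change of each tested member of 21 gene lists (log2, juvenile testis minus Dazl-GFP-positive ES), coloured by whether limma called it higher, lower or not at all, with the median of each list as a bar and the median of all genes as a dotted line. The germline, meiotic and X-linked lists lie mostly to the right, the pluripotency and glycolysis lists mostly to the left, and the stem cell and DNA methylation lists lie on both sides.

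Proteins that bind and regulate RNA in germ cells were mostly higher in the testis cells. Of 17 such genes, all tested, 10 were called higher and 1 lower, against 26.3% and 27.5% of all genes, with a median change of 2.23 (1.87 with bounds, and 1.40 under normexp with the same counts). Boll, the ancestral member of the Dazl family, stood at 1.76 and 1.75 in juvenile testis, against -2.64 and -2.59 in ES cells, a change of 4.37 ± 0.43 (adjusted p = 8.8e-06). Tex14, which keeps the bridges between dividing germ cells open, rose by 3.90 ± 0.33, Cpeb1, a regulator of poly(A) tails, by 3.15 ± 0.37, and the helicase Ddx25 by 1.87 ± 0.27. Tex19.1, a germ cell and placental protein that restrains retrotransposons, was already high in ES cells at 4.30 and 4.44 and reached 5.48 and 6.74 in juvenile testis (adjusted p = 7.6e-04).

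The 3 Nanos genes, which encode translational repressors of germ cells, behaved unequally. Nanos1 stood at 0.12 and 0.15 in juvenile testis, against -3.49 and -3.10 in ES cells, a rise of 3.43 ± 0.42 (adjusted p = 4.2e-05; 2 probes, 0.96 to 3.43). Nanos3 was called higher by 1.79 ± 0.70, close to the threshold at an adjusted p of 0.049, and its juvenile levels of -1.33 and 0.75 lay far apart. It lost the call without juvenile replicate 2 (change 0.75), without ES replicate 1 (1.52) and without ES replicate 2 (2.06). Nanos2, the factor of male fetal germ cells and stem cells, measured -4.07 and -1.59 in juvenile testis, against -5.85 and -6.14 in ES cells below background, and was not called (adjusted p = 0.072). Its E13.5 levels were -5.63 and 0.39, and it was called when the library labelled E13.5 replicate 1 was left out (adjusted p = 8.4e-04). Without that library 14 of the 17 regulators were called higher.

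The piRNA pathway, which makes the small RNAs that silence transposons in the male germ line, was called higher in most of its tested genes. Of 20 genes on the array 19 were tested, and 17 were called higher and 1 lower, with a median change of 4.76 (4.54 with bounds). Under normexp 14 were higher and 1 lower, with a median of 3.16, or 3.83 relative to that setting's median of all genes. The gene called lower there was Tdrd6, which is called higher in the setting reported. Piwil2 and Piwil4 encode the Piwi proteins of fetal and early postnatal germ cells. Piwil2 stood at 2.32 and 3.01 in juvenile testis, against -1.92 and -2.25 in ES cells, a change of 4.76 ± 0.48 (adjusted p = 1.0e-05), and Piwil4 stood at 0.15 and 1.22 in juvenile testis, against -4.10 and -3.63 in ES cells, with 1 of 2 ES arrays above background. Piwil1, the Piwi protein of meiotic cells and spermatids, reached only -1.27 and -0.84 in juvenile testis, against -6.04 and -6.16 in ES cells, where it was not above background, and was at least 7.66-fold higher, with no call under normexp (0.24).

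The Tudor domain proteins, which assemble the piRNA machinery into granules, showed the range within the pathway. Tdrd9, an RNA helicase, stood at 2.74 and 3.0 in juvenile testis, against -6.26 and -6.12 in ES cells below background, and was at least 116-fold higher (adjusted p = 2.0e-07). Tdrd1 rose by 6.27 ± 0.27, Tdrkh by 4.54 ± 0.19 (2 probes, 2.36 to 4.54), Tdrd7 by 4.51 ± 0.33 and Tdrd5 by 2.60 ± 0.41. Tdrd12 was the member that fell: its levels were 2.88 and 3.64 in juvenile testis, against 4.79 and 4.47 in ES cells (change -1.37 ± 0.25, adjusted p = 7.9e-04), and under normexp it lost the call and, relative to that fit's median, its sign (0.12). Rnf17 was not called, at -1.07 and -0.88 in juvenile testis and -1.34 and -1.45 in ES cells.

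Of the remaining factors, the helicase Mov10l1, which binds piRNA precursors, rose by 5.94 ± 0.38, and Mael stood at 5.39 and 6.03 in juvenile testis, against -0.15 and -0.35 in ES cells (adjusted p = 1.9e-07). The mitochondrial scaffold Asz1 was at least 42.7-fold higher and Henmt1, which methylates piRNA ends, at least 15.2-fold higher, though under normexp Henmt1 was not called (0.76). Exd1 and Stk31, further partners of the pathway, rose by 3.91 ± 0.39 and 3.83 ± 0.26. Fkbp6, a co-chaperone of Piwi loading, stood at 5.95 and 6.45 in juvenile testis, against -2.46 and -2.07 in ES cells, a change of 8.46 ± 0.51 (adjusted p = 2.1e-07). Gtsf1 rose by 4.76 ± 0.49, in contrast to the fall of its relative Gtsf1l. Against E13.5 germ cells, 5 of the 19 were higher in juvenile testis and 1 lower, where 16.0% and 18.9% of all genes were. Without E13.5 replicate 1 the counts were 8 and 2, against 18.6% and 21.8% of all genes. Tdrd9 exceeded its E13.5 level by 4.17 ± 0.54 (adjusted p = 1.6e-04), or 5.22 without E13.5 replicate 1. Henmt1 exceeded its own by 4.68 ± 0.60 (adjusted p = 1.5e-04), or 5.78 without E13.5 replicate 1, with 1 of 2 E13.5 arrays above background.

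The synaptonemal complex, the protein zipper that joins homologous chromosomes in meiosis, was raised in most of its parts. All 11 genes of the complex and its axis passed the filter, and 9 were called higher and 0 lower, with a median change of 4.83 (3.84 with bounds). Under normexp 10 were called higher with a median of 1.67. Of the 6 that were above background on all 4 arrays, 4 were called higher, with a median of 2.98. Sycp1, which forms the transverse filaments, stood at 2.95 and 1.79 in juvenile testis, against -4.00 and -4.07 in ES cells below background, and was at least 81.8-fold higher (adjusted p = 1.8e-04). Tex12, of the central element, stood at 3.38 and 2.82 in juvenile testis, against -5.53 and -4.81 in ES cells below background, and was at least 137-fold higher (adjusted p = 1.4e-06). The axis protein gene Sycp2 was at least 25.5-fold higher (3 probes, 0.71 to 6.85), and Sycp3 stood at 1.46 and 0.12 in juvenile testis, against -4.64 and -3.43 in ES cells, with 1 of 2 ES arrays above background. Syce3 rose by 5.25 ± 0.65 and Syce1 by 3.84 ± 0.40. Tex11, an X-linked meiotic protein counted here and with the X-linked genes, was at least 6.94-fold higher, with no call under normexp (0.23). Hormad1 and Hormad2, which mark unpaired axes, rose by 3.25 ± 0.56 (2 probes, 0.80 to 3.25) and 2.71 ± 0.40. Syce2 was not called, at 5.16 and 4.87 in juvenile testis and 4.62 and 4.69 in ES cells (adjusted p = 0.18). 4930447C04Rik, which encodes the central element protein Six6os1, was not called on its brightest probe (change 1.05 ± 0.56). Against E13.5 germ cells 0 of the 11 were called in either direction, and 4 were higher in juvenile testis without E13.5 replicate 1, where 18.6% of all genes were.

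Cohesin, the ring that holds sister chromatids together, has subunits used only in meiosis. Smc1b stood at 6.05 and 5.05 in juvenile testis, against 0.10 and -0.01 in ES cells, a change of 5.50 ± 0.48 (adjusted p = 3.6e-06), and Stag3 rose by 3.83 ± 0.29. Rec8 had levels of 4.48 and 3.24 in juvenile testis, against 1.98 and 1.76 in ES cells, with E13.5 levels of 7.45 and 3.14, and it was not called (change 1.99 ± 0.97, adjusted p = 0.1). Without E13.5 replicate 1 its adjusted p was 9.2e-04. Among the 5 mitotic counterparts 1 was called higher and 1 lower, against 26.3% and 27.5% of all genes. The one called lower, at -1.04, was not called under normexp (-0.44, or 0.23 relative to that setting's median). Stag1 was the one called higher, by 1.38 ± 0.15, but its 4 probes ranged from -1.26 to 1.59 and their mean was not called (0.34). Rad21, Smc3 and Stag2 were not called, with changes of -0.48 ± 0.26, 0.15 ± 0.16 and -0.44 ± 0.34.

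Meiotic recombination genes, which make and repair the programmed breaks, were split. Of 21 genes on the array 20 were tested, 9 were called higher and 2 lower, and the median change was 1.25. Under normexp the counts were 9 higher and 5 lower and the median was 0.49, or 1.16 relative to that setting's median of all genes. Mei1, needed for break formation, stood at 4.55 and 2.86 in juvenile testis, against -2.64 and -2.54 in ES cells, a rise of 6.29 ± 1.43 (adjusted p = 0.0032). Rnf212, a crossover factor, rose by 4.67 ± 0.64, Tex15 by 4.09 ± 0.58 and the break factor Rec114 by 3.08 ± 0.41. Dmc1, the meiotic strand exchange protein, measured 2.28 and -0.15 in juvenile testis, against -2.32 and -2.75 in ES cells, and its call (adjusted p = 0.0057) was lost without juvenile replicate 1, at a change of 2.38. Msh4 and Msh5, which stabilise crossovers, were at least 1.99-fold and 4.45-fold higher, but both are dim, and under normexp their signs turned (-1.04 and -0.50, or -0.37 and 0.16 relative to that setting's median). Msh4 also lost its call without juvenile replicate 1 (2.22) and without ES replicate 2 (2.80). Spo11, the enzyme that cuts, was not called on its brightest probe (change 1.39 ± 0.91), while the mean of its 2 probes was (2.93, adjusted p = 0.0033).

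Mnd1, a partner of Dmc1, was called lower. It stood at 0.60 and 1.05 in juvenile testis, against 2.47 and 2.70 in ES cells, a change of -1.76 ± 0.32 (adjusted p = 6.5e-04), and at 2.34 and 3.46 in E13.5 germ cells. Without juvenile replicate 1, 6 recombination genes were called higher in place of 9.

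Promoters of the piRNA and synaptonemal genes were searched for short words. The E-box CACGTG, which reads the same on both strands, was searched in the 250 bases before each annotated start in the RefSeq promoter table (build GRCm38.p6). The word occurred in 10 of 24 promoters of tested piRNA genes and in 7 of 13 of the synaptonemal genes, that is 41.7% and 53.8%. Of all 32851 promoters 6.02% hold it, and of the promoters of tested genes 7.87%. Recombination genes (1 of 17) and germline RNA regulators (2 of 23) were near that background. The E2F-type word GCGGGAA, searched on both strands, occurred in 5 of 13 synaptonemal promoters and 1 of 24 piRNA promoters, against 6.24% for tested genes. CATGTG and TGACGTCA, searched in the same way, were in 1 and 0 synaptonemal promoters and in 1 and 0 piRNA promoters. Several starts of one gene can share sequence, so promoters are not independent, and a match is a description of letters and not a site shown to be bound.

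The windows that follow show the E-box nearest to the start in capitals for 4 piRNA and 3 synaptonemal genes and for Ddx4, with the flanking bases in lower case, written 5′ to 3′ on the strand of the gene. They are shown because these genes rose and their promoters hold the word at different distances from the start.
Mael (chr1:166238935-166238994, minus strand): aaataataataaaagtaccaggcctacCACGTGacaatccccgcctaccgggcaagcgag
Tdrd1 (chr19:56826171-56826208, plus strand): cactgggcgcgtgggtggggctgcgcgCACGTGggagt
Tdrd9 (chr12:111971437-111971496, plus strand): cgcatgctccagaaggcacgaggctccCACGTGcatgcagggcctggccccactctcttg
Fkbp6 (chr5:135350049-135350108, minus strand): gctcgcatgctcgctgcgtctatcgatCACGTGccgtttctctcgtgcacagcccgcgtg
Sycp1 (chr3:102936162-102936221, minus strand): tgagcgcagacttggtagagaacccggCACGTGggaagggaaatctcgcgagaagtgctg
Sycp3 (chr10:88459517-88459576, plus strand): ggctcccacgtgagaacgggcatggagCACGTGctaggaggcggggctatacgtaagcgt
Tex12 (chr9:50561329-50561388, minus strand): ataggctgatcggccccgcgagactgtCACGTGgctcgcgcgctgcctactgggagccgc
Ddx4 (chr13:112652311-112652366, minus strand): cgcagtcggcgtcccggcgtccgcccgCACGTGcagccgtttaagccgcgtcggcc
The E-box began 29 bases before the start in Ddx4, 11 in Tdrd1, 37 in Fkbp6, 43 in Sycp3, 93 in Tex12, 94 in Sycp1, 95 in Tdrd9 and 223 in Mael. Fkbp6, Sycp3 and Tdrd9 hold 2 copies each. Sycp3, Tex12 and Ddx4 also hold GCGGGAA or its complement. Across the 5 lists of RNA regulators, piRNA, synaptonemal, meiotic cohesin and recombination genes, the E-box was in 19 of 53 promoters of genes called higher and in 2 of 27 of the others. Of the promoters with the word, 10 belong to the piRNA list and 7 to the synaptonemal list, whose genes were mostly called higher. The contrast by call is thus not separate from the contrast between lists. Among all tested genes the share was 9.1% for promoters of genes called higher and 7.24% for genes called lower.

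**Figure D3:**
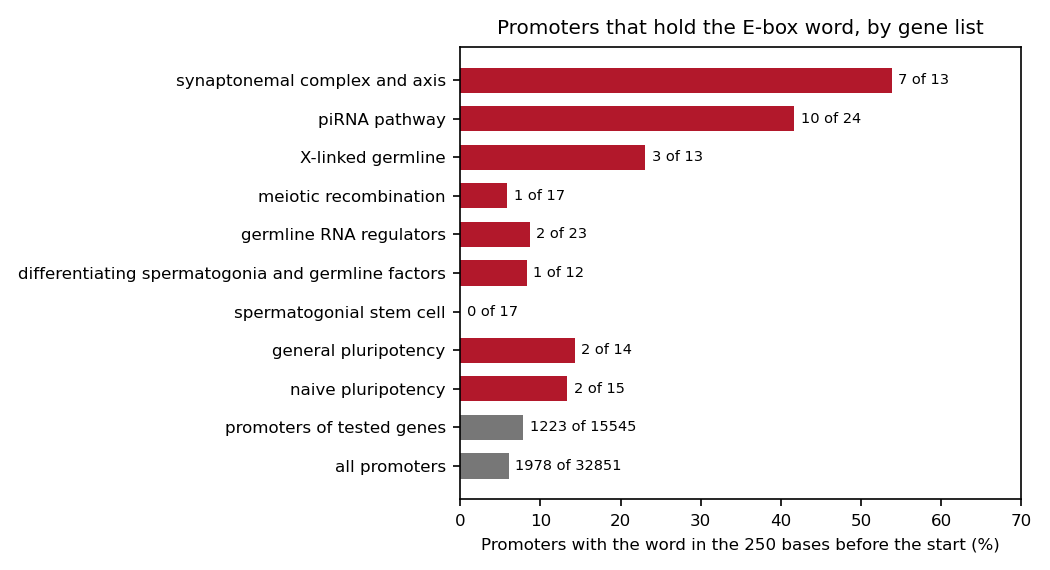
Share of promoters that hold the E-box word in the 250 bases before the start (x axis, percent), for tested members of 9 gene lists, for all tested genes and for all promoters of the table, with the counts beside the bars. The synaptonemal and piRNA lists have the longest bars, at 53.8% and 41.7%, against 7.87% for tested genes and 6.02% for all promoters.

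Genes of retinoic acid supply and response, the signal for meiotic entry, were led by Stra8. Stra8 stood at 7.75 and 7.06 in juvenile testis, against -0.03 and -0.08 in ES cells, a change of 7.46 ± 1.73 (adjusted p = 0.0035). The E13.5 libraries in the same fit measured 8.87 and 1.55. Of 17 genes, all tested, 8 were called higher and 1 lower, with a median of 1.16 (0.45 with bounds). Under normexp 6 were higher and 6 lower, and the median was -0.42, or 0.25 relative to that setting's median of all genes. The retinaldehyde dehydrogenases, which make retinoic acid, rose: Aldh1a1 stood at 2.80 and 1.84 in juvenile testis, against -2.89 and -2.77 in ES cells, and Aldh1a2 stood at 3.36 and 1.95 in juvenile testis, against -0.80 and -1.09 in ES cells (adjusted p = 3.4e-04 and 2.8e-04). Aldh1a3 was at least 4.10-fold higher, but under normexp its sign turned (-0.31, or 0.36 relative to that setting's median). Aldh1a1 and Aldh1a2 are known also from Sertoli and meiotic cells, and markers of Sertoli cells were raised in the same samples.

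The receptor Rxra rose by 2.74 ± 0.34 (2 probes, 0.41 to 2.74) and the binding protein Crabp1 by 2.71 ± 0.55, whereas Crabp2 was at least 4.39-fold lower in juvenile testis, where it was not above background. Cyp26b1, which degrades retinoic acid, was at least 12.1-fold higher, with no call under normexp (0.49). Its relative Cyp26a1 was not called against ES cells, at -1.02 and -0.84 in juvenile testis and 0.46 and 0.41 in ES cells. Cyp26a1 lay above E13.5 by 4.19 ± 0.92 (adjusted p = 0.0044), or 5.59 without E13.5 replicate 1, with 1 of 2 E13.5 arrays above background.

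Factors of the spermatogonial stem cell lay on both sides. Of 21 tested, 6 were called higher and 9 lower, shares near the background of 26.3% for rises and above the 27.5% for falls. Gfra1, the receptor for the niche factor GDNF, stood at -2.27 and -0.21 in juvenile testis, against -5.59 and -4.72 in ES cells below background, and was at least 6.74-fold higher (adjusted p = 0.0017). Id4 rose by 1.77 ± 0.43 on its brightest probe, though the mean of its 2 probes was not called (0.55). Foxo1 rose by 1.67 ± 0.33 and Sox3, an X-linked factor of spermatogonia, was at least 8.57-fold higher. Several of the genes that fell are also expressed in ES cells. Etv5 changed by -3.80 ± 0.63, the surface protein Thy1 by -3.95 ± 0.50, Cdh1, which encodes E-cadherin, by -5.39 ± 0.53, and Utf1 by -4.69 ± 0.48. Sall4, which both cell types use, stood at 1.39 and 2.70 in juvenile testis, against 3.85 and 3.61 in ES cells (adjusted p = 0.0013). Without juvenile replicate 1 the counts were 7 higher and 6 lower, and under normexp 2 and 7. Under normexp Gfra1 and Sox3 kept a positive sign with no call (0.26 and 0.39). Lin28a, an RNA-binding protein of both cell types, was called lower at -1.34 ± 0.37, and lost the call without juvenile replicate 1 (-0.59) and without ES replicate 1 (-1.26). Lin28a also lost it under normexp (-0.62, or 0.05 relative to that setting's median).

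Most markers of differentiating spermatogonia were called higher. Of 12 tested, 10 were called higher and 1 lower, with a median of 3.42. Kit, the receptor that marks them, stood at 2.27 and 1.75 in juvenile testis, against 0.95 and 0.57 in ES cells, a change of 1.25 ± 0.22 (adjusted p = 6.1e-04). Sohlh2, a bHLH factor of spermatogonia, rose by 3.97 ± 0.30 and Dmrt1, which guards the mitotic state, by 3.98 ± 0.21. Dmrtb1, which acts at the switch to meiosis, stood at 2.22 and 0.71 in juvenile testis, against -3.91 and -3.47 in ES cells, with 1 of 2 ES arrays above background. It also lay above E13.5, by 4.24 ± 0.74 (adjusted p = 0.0011), or 5.73 without E13.5 replicate 1. Uchl1, an abundant spermatogonial enzyme, rose by 2.87 ± 0.52. Rfx2, a factor of later meiotic cells, was called lower, at -1.61 and -3.88 in juvenile testis and -0.26 and -0.41 in ES cells. Against E13.5, 7 of the 12 were higher and 1 lower, beside 16.0% and 18.9% of all genes. The counts were 8 and 0 without E13.5 replicate 1, beside 18.6% and 21.8%.

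The 2 juvenile samples differed from each other in some of these lists and not in others. Juvenile replicate 1 was above replicate 2 in 43.8% of all tested genes. It was above in all 11 synaptonemal genes, in all 3 meiotic cohesin genes, in 14 of 20 recombination genes and in 13 of 15 Sertoli markers. Replicate 2 was above in 18 of 21 stem cell genes, in 18 of 19 piRNA genes and in 14 of 20 glycolysis genes. Lists that were near an even split had replicate 1 above in 5 of 12 differentiation markers, 9 of 17 RNA regulators, 9 of 17 retinoic acid genes and 6 of 13 X-linked genes. The median difference, replicate 1 minus replicate 2, was 1.11 for the synaptonemal list and -1.38 for the stem cell list, beside -0.10 for all genes. With 1 array on each side this difference has no replicate check.

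The genes named next were chosen for their gap between the juvenile arrays. Meiob, a meiotic DNA-binding protein, measured 3.44 in juvenile replicate 1 and -0.84 in replicate 2, beside -1.75 and -1.43 in ES cells. Meioc, which holds germ cells in meiotic prophase, measured 2.92 in replicate 1 and -0.80 in replicate 2, beside -1.42 and -1.01 in ES cells. In the other direction, Bcl6b, a GDNF target, measured -1.64 in replicate 1 and 1.39 in replicate 2, beside -1.57 and -1.35 in ES cells. Ccnd2, a cyclin of spermatogonia, measured 3.07 in replicate 1 and 5.18 in replicate 2, beside 2.79 and 2.72 in ES cells. None of these 4 was called with both samples (adjusted p = 0.06, 0.14, 0.15 and 0.053). Without juvenile replicate 2 the fitted changes were 5.04 for Meiob, 4.13 for Meioc and 2.03 for Ythdc2, the RNA-binding partner of Meioc. Without juvenile replicate 1 they were 2.85 for Bcl6b and 2.43 for Ccnd2. Each of these values rests on 1 juvenile array, which such a fit assumes to vary like the other groups, and on the array where the gene lay farther from ES cells, so it is a description and not support for a change. With both juvenile arrays, Meiob and Meioc were called without E13.5 replicate 1 (adjusted p = 0.026 and 0.04). The age of each sample within the labelled range is not given, and its part in this difference was not tested.

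**Figure D4:**
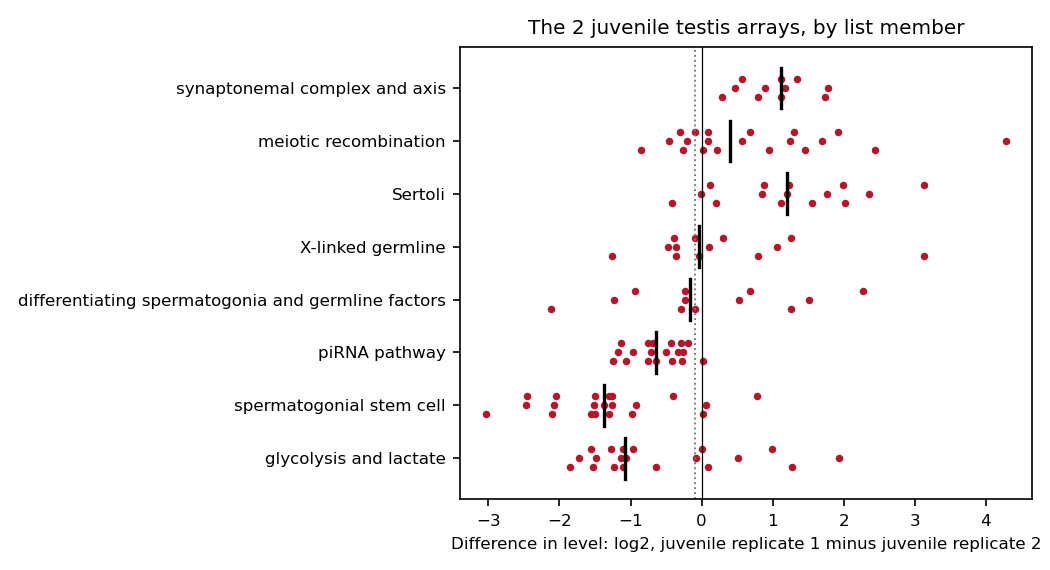
Difference in level between the 2 juvenile testis arrays (log2, replicate 1 minus replicate 2; points are tested members of 8 lists, bars are list medians, the dotted line is the median of all genes at -0.10). The synaptonemal genes all lie right of 0, and 18 of 19 piRNA genes and 18 of 21 stem cell genes lie left of it.

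Genes of spermatids and late meiosis, cells that appear later in the first wave, were mixed. Of 20 on the array 14 passed the filter, and 6 were called higher and 2 lower, against 26.3% and 27.5% of all genes. All 14 were above background on both juvenile arrays, but only 7 on both ES arrays. Of the 7 above background on all 4 arrays, 2 were called higher and 2 lower, with a median of -0.12. Under normexp 2 of the 14 were higher and 10 lower, with a median of -0.41 relative to that setting's median of all genes. Hspa2, the heat shock protein of meiotic spermatocytes, stood at 2.19 and 0.36 in juvenile testis, against -1.84 and -1.95 in ES cells, a rise of 3.18 ± 0.47 (adjusted p = 1.8e-04). Ccna1, the meiotic cyclin, was at least 3.67-fold higher, and the acrosomal gene Spaca1 at least 3.58-fold, but both turned sign under normexp (-0.63 and -0.77, or 0.04 and -0.10 relative to that setting's median). Tnp1, a transition protein of spermatids, was called higher by 2.13 ± 0.66, and lost the call without juvenile replicate 2 (1.42) and without ES replicate 1 (1.43). Prm1, which encodes a protamine, was called lower on its brightest probe at -3.20 and -3.14 in juvenile testis, against -0.83 and -0.43 in ES cells, but its 2 probes disagreed, with changes of -2.54 and 1.65.

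Chromatin proteins of the testis gave 3 members called higher and 2 called lower among 8 tested, against 26.3% and 27.5% of all genes. As a list they were thus not far from the array as a whole. Brdt, the bromodomain protein of spermatocytes, stood at -0.57 and -1.09 in juvenile testis, against -5.04 and -6.15 in ES cells below background, and was at least 8.96-fold higher, with no call under normexp (0.03). Phf13, a reader of histone methylation, rose by 3.03 ± 0.37. Morc1, which silences transposons in fetal male germ cells, was called lower at 0.50 and 2.16 in juvenile testis, against 3.64 and 3.79 in ES cells, and it stood at -0.43 and -0.16 in E13.5 germ cells.

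The X-linked germline list rose as a whole. All 13 genes were called higher, against 26.3% of all genes, with changes from 4.5 to 9.03 and a median of 5.66 (5.57 with bounds). The list was drawn up with earlier results of these samples known, so its direction is not independent evidence. Nxf2, an mRNA export factor, stood at 1.87 and 2.26 in juvenile testis, against -5.84 and -6.30 in ES cells below background, and was at least 66.6-fold higher (adjusted p = 3.5e-06). Tex13b stood at 3.48 and 3.18 in juvenile testis, against -5.94 and -5.45 in ES cells below background, and was at least 160-fold higher (adjusted p = 1.9e-08). Tktl1, related to transketolase, was at least 47.6-fold higher. Ott rose by 7.09 ± 0.40, the ferritin-related Fthl17e by 5.13 ± 0.33, the homeobox gene Rhox13 by 5.66 ± 0.73, the deubiquitinase Usp26 by 5.11 ± 0.49 (2 probes, 2.44 to 5.11), and Magea5, of the MAGE family, by 4.5 ± 0.61. For Usp26 and Magea5 1 of 2 ES arrays was above background.

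These genes also set juvenile germ cells apart from E13.5 germ cells. Of the 13, 10 were higher in juvenile testis than at E13.5 and 0 lower, against 16.0% and 18.9% of all genes, and 12 were higher without E13.5 replicate 1, against 18.6%. Nxf2 measured -3.19 and -4.86 at E13.5, and juvenile testis lay above it by 6.09 ± 0.72 (adjusted p = 7.9e-05), or 6.92 without E13.5 replicate 1. Esx1, a homeobox gene, stood at 4.90 and 1.78 in juvenile testis, -2.94 and -6.35 at E13.5 and -2.12 and -2.25 in ES cells. For Esx1 juvenile testis exceeded E13.5 by 7.98 ± 1.03 (adjusted p = 1.5e-04), or 9.69 without E13.5 replicate 1, with 1 of 2 E13.5 arrays above background. Scml2 was intermediate at E13.5, at 2.65 and 1.85. Under normexp 11 of the 13 were called higher and 0 lower.

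Among Y-linked genes 4 of 8 tested were called higher and 0 lower, against 26.3% and 27.5% of all genes. Without the E13.5 library that lacks Y-linked signal 7 were called higher, where 5550 of 18876 genes were. Zfy2 was at least 13-fold higher. Usp9y was at least 3.91-fold higher, though under normexp its sign turned (-0.56, or 0.11 relative to that setting's median). Uba1y, a ubiquitin-activating enzyme, stood at 4.73 and 4.93 in juvenile testis, against -1.16 and -1.16 in ES cells, and was not called in the fit of all arrays (adjusted p = 0.063), in which E13.5 measured -7.38 and 4.51. Without that library its adjusted p was 6.7e-08. Eif2s3y, which is expressed widely, stood at 2.37 and 2.00 in juvenile testis and at 1.86 and 2.10 in ES cells, and its ranges in the groups overlapped, so Y-linked RNA was measured in both.

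The pluripotency network fell almost throughout. Of 15 general pluripotency genes 14 were called lower and 0 higher, of 15 naive genes 13 and 0, and of 14 genes of the primed epiblast and primitive streak 12 and 0, against 27.5% and 26.3% of all genes. The median changes were -5.26, -4.29 and -4.19 in that order, and -4.39, -3.03 and -2.34 under normexp. One of the primed genes called, Mixl1, was dim in both groups and its fold was not measured. Beside Sox2 and Nanog, Gdf3, a growth factor of pluripotent cells, was at least 195-fold lower and not above background on either juvenile array. Tdgf1, a Nodal co-receptor, stood at -4.35 and -4.09 in juvenile testis, against 3.55 and 3.48 in ES cells (change -7.73 ± 0.86). Dppa5a fell by 6.70 ± 0.43 but was still measured at 2.12 and 3.17 in juvenile testis, against 9.35 and 9.34 in ES cells. Its relatives by name Dppa2 and Dppa4 changed by -4.59 ± 0.22 and -3.30 ± 0.42. Against E13.5, 11 of the 15 general pluripotency genes were lower in juvenile testis and 2 higher, against 18.9% and 16.0% of all genes. Without E13.5 replicate 1 12 were lower and 1 higher, against 21.8% and 18.6%.

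Within the naive factors the falls were unequal. Esrrb, an orphan nuclear receptor, stood at -3.46 and -3.48 in juvenile testis, against 3.33 and 3.44 in ES cells, a change of -6.86 ± 0.31 (adjusted p = 2.5e-08; 2 probes, -6.86 to -2.76). Klf2 changed by -5.62 ± 0.21 on its brightest probe, with the other probe at 0.72, and Klf5 by -3.58 ± 0.28, while Klf4 stood at 3.69 and 3.49 in juvenile testis, against 4.70 and 4.54 in ES cells (change -1.03 ± 0.24), and lost its call under normexp (-0.25). Tbx3, Tfcp2l1 and Nr5a2 changed by -4.63 ± 0.16, -3.63 ± 0.28 and -3.33 ± 0.52. Spp1, which encodes osteopontin, fell by 8.03 ± 0.33, and Socs3, a target of the cytokine in the medium, fell by 3.86 ± 0.42. Stat3, which carries that signal, was not called, at 1.91 and 1.85 in juvenile testis and 2.40 and 2.21 in ES cells (adjusted p = 0.24), and was called without E13.5 replicate 1 (0.016).

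Nodal and its antagonists Lefty1 and Lefty2 fell. Nodal stood at -2.61 and -2.71 in juvenile testis, against 3.09 and 3.13 in ES cells (adjusted p = 5.4e-04). Its antagonist Lefty1 stood at -4.57 and -4.41 in juvenile testis, against 4.70 and 4.60 in ES cells (adjusted p = 8.3e-04). Lefty2 stood at -3.44 and -3.55 in juvenile testis, against 3.26 and 3.05 in ES cells (adjusted p = 0.0049). The 2 E13.5 libraries disagreed on all 3, with Nodal at -1.39 and 3.37, Lefty1 at -2.54 and 5.50 and Lefty2 at -4.39 and 3.33. Fgf5, the marker of primed epiblast, was at least 117-fold lower, Otx2 at least 44.2-fold and Cer1 at least 16.5-fold. Foxd3 fell by 4.49 ± 0.42, and the streak gene T fell by 3.89 ± 0.71.

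The genes of early PGCs went both ways. Dnd1, Kit and Nanos3 were called higher, and Prdm1, Tfap2c, Dppa3, Ifitm1 and Ifitm3 lower, out of 8. Dppa3, which encodes Stella, stood at -2.17 and -2.43 in juvenile testis, against 4.19 and 4.26 in ES cells (adjusted p = 9.5e-08), and at 5.43 and 6.95 at E13.5, with a difference of -8.49 ± 0.35 (adjusted p = 1.1e-07), or -9.25 without E13.5 replicate 1 between juvenile testis and E13.5. Prdm1, the factor that specifies PGCs, stood at -4.27 and -5.45 in juvenile testis, 0.13 and 1.56 at E13.5 and -0.95 and -0.98 in ES cells, with 1 of 2 juvenile arrays above background. Tfap2c fell by 4.72 ± 0.33 against ES cells, Ifitm1 fell by 6.17 ± 0.35 and Ifitm3 fell by 5.75 ± 0.30. Dnd1, an RNA-binding protein of germ cells throughout, rose by 2.23 ± 0.40. Of the 8 genes 6 were lower in juvenile testis than at E13.5 and 0 higher, with or without E13.5 replicate 1, where 18.9% and 16.0% of all genes were with it and 21.8% and 18.6% without it.

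**Figure D5:**
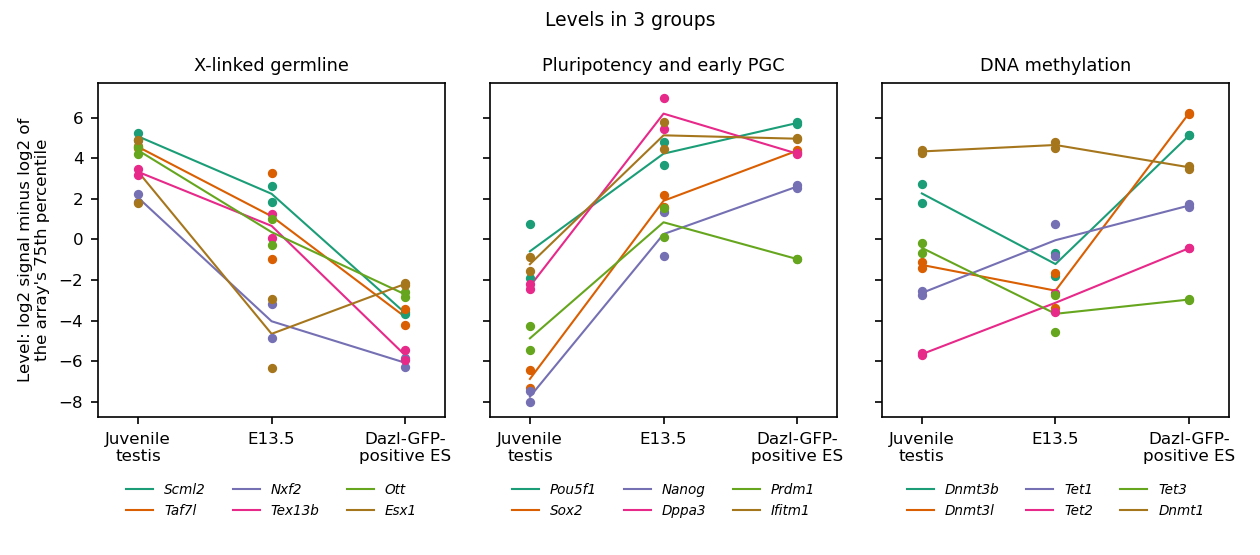
Levels of 18 genes in juvenile testis, E13.5 germ cells and Dazl-GFP-positive ES cells (log2 signal minus log2 of the array's 75th percentile), with points for the 2 arrays of each group and lines through the means. The X-linked germline genes are highest in juvenile testis, Dppa3 and Prdm1 are highest at E13.5, and Dnmt3b and Tet3 are lower at E13.5 than in juvenile testis.

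The enzymes that set and remove DNA methylation changed in opposite ways within each family. Of 16 genes 3 were called higher and 8 lower, with a median of -0.47. Under normexp 5 were higher and 5 lower, where 3610 and 9378 of 18876 genes were. The median there was 0.66 relative to that setting's median of all genes. The count of falls was 5 without juvenile replicate 1 and likewise without ES replicate 1 or ES replicate 2, and the count of rises was 5 without E13.5 replicate 1. Dnmt3l, the cofactor of de novo methylation, stood at -1.41 and -1.09 in juvenile testis, against 6.24 and 6.20 in ES cells, a change of -7.47 ± 0.40 (adjusted p = 8.2e-08). The methyltransferase Dnmt3b stood at 1.82 and 2.71 in juvenile testis, -1.78 and -0.64 at E13.5 and 5.13 and 5.12 in ES cells. Juvenile testis thus differed from ES cells by -2.86 ± 0.34 (adjusted p = 3.5e-05) and lay above E13.5 by 3.47 ± 0.34 (adjusted p = 2.2e-05), or 2.91 without E13.5 replicate 1. Dnmt3a was not called on its brightest probe (change 0.55 ± 0.29) and was called on the mean of 2 probes (0.84), and the maintenance enzyme Dnmt1 rose by 0.78 ± 0.20, a call it lost when only the 4 arrays were fitted.

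The 3 Tet genes encode enzymes that oxidise methylated cytosine. Tet1 stood at -2.54 and -2.72 in juvenile testis, against 1.75 and 1.58 in ES cells, a change of -4.30 ± 0.38, and Tet2 was at least 34.0-fold lower and not above background on either juvenile array. Tet3 moved the other way, at -0.15 and -0.67 in juvenile testis, against -3.0 and -2.91 in ES cells, a rise of 2.54 ± 0.47 (adjusted p = 8.2e-04), and it lay above E13.5 by 3.24 ± 0.47 (adjusted p = 3.3e-04), or 4.16 without E13.5 replicate 1. Tdg, a glycosylase that acts after the Tet enzymes, fell by 2.20 ± 0.21.

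Imprinted genes were called higher in 1 and lower in 9 of 18 tested, against 26.3% and 27.5% of all genes, with a median of -1.41. Under normexp 2 were higher and 10 lower, where 3610 and 9378 of 18876 genes were. The median there was -0.39 relative to that setting's median of all genes. Snrpn stood at -2.19 and -1.70 in juvenile testis, against 2.83 and 2.91 in ES cells, a change of -4.81 ± 0.37 (adjusted p = 1.4e-06), and Impact and Peg3 changed by -4.25 ± 0.23 and -2.05 ± 0.29. The neighbours Dlk1 and Meg3 went opposite ways: Dlk1 stood at 2.28 and 3.57 in juvenile testis, against -1.05 and -1.0 in ES cells, and Meg3 stood at -0.38 and 0.71 in juvenile testis, against 4.56 and 4.46 in ES cells (adjusted p = 2.5e-05 and 2.2e-06; for Meg3 5 probes, -5.30 to -2.62). Mest fell by 3.14 ± 0.88, with juvenile levels of -0.69 and 2.04, and lost its call without juvenile replicate 1 (-1.77). Without juvenile replicate 1 3 imprinted genes were higher and 6 lower, and the count of falls was 6 without either ES replicate.

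Of 33 cell cycle genes tested, 18 were called lower and 3 higher, against 27.5% and 26.3% of all genes, with a median change of -0.76. Under normexp 14 were lower and 5 higher, with a median of 0.10 relative to that of all genes, and Ccnb2, Mcm5, Pcna and Plk1, called in the setting reported, had the other sign on that relative scale. Mki67, a marker of proliferating cells, stood at 4.94 and 4.59 in juvenile testis and at 4.47 and 4.51 in ES cells and was not called (adjusted p = 0.37). Ccne1, the G1/S cyclin that is high throughout the ES cell cycle, stood at 3.12 and 2.43 in juvenile testis, against 6.79 and 6.80 in ES cells, a change of -4.02 ± 0.26 (adjusted p = 3.8e-07). Ccna2 and Cdk1, which drive S phase and mitosis, changed by -1.56 ± 0.21 and -2.01 ± 0.30, and the inhibitor Cdkn1a by -3.54 ± 0.18. Rb1, the retinoblastoma gene, rose by 2.45 ± 0.28 and E2f1 by 1.93 ± 0.27. Myc stood at -5.28 and -4.69 in juvenile testis, with 1 of 2 arrays above background, against 2.95 and 2.74 in ES cells, a change of -7.83 ± 0.39 (adjusted p = 5.8e-08; 3 probes, -8.06 to -5.02), and Mycn fell by 3.11 ± 0.31.

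Most glycolysis genes were called lower. Of 20 genes of glucose uptake, glycolysis and lactate, 17 were called lower and 0 higher, against 27.5% and 26.3% of all genes, with a median of -2.97. Under normexp 15 were lower and 2 higher, where 9378 and 3610 of 18876 genes were. The median there was -1.62 relative to that setting's median of all genes. Ldha, lactate dehydrogenase A, stood at 0.33 and 1.30 in juvenile testis, against 7.07 and 7.01 in ES cells, a change of -6.23 ± 0.39 (adjusted p = 2.7e-07). The glucose transporter Slc2a3 stood at 0.02 and 0.02 in juvenile testis, against 5.88 and 5.71 in ES cells, a change of -5.77 ± 0.19 (adjusted p = 2.8e-09; 2 probes, -5.77 to -3.28), and Slc2a1 fell by 3.95 ± 0.50. Of the pathway's steps, Hk2 changed by -2.51 ± 0.35, Pfkl by -4.49 ± 0.34, Aldoa by -3.02 ± 0.39, Tpi1 by -4.90 ± 0.36, Pgk1 by -4.59 ± 0.20 and Pkm by -2.93 ± 0.48. The lactate exporter Slc16a3 fell by 3.75 ± 0.28. Against E13.5 7 of the 20 were lower in juvenile testis and 2 higher, where 18.9% and 16.0% of all genes were. Without E13.5 replicate 1 11 were lower and 2 higher, where 21.8% and 18.6% were. Of 13 immediate-early and stress genes 9 were called lower and 0 higher, against 27.5% and 26.3% of all genes. Under normexp 10 were lower and 1 higher, with a median of -0.96 relative to that of all genes. Junb stood at 0.28 and 0.16 in juvenile testis, against 3.65 and 3.66 in ES cells. Fos stood at -2.24 and -2.65 in juvenile testis, against -0.88 and -0.64 in ES cells.

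Markers of cells other than germ and ES cells moved as well. In bulk samples a change in the share of a cell type and a change in RNA per cell cannot be told apart. Of 15 Sertoli markers 10 were called higher and 1 lower, against 26.3% and 27.5% of all genes. Under normexp 5 were higher and 6 lower, with a median of 1.13 relative to that setting's median of all genes. Inha, an inhibin subunit, stood at 1.91 and 0.36 in juvenile testis, against -6.25 and -4.24 in ES cells below background, and was at least 35.0-fold higher (2 probes, 4.26 to 6.38). Dhh, the Sertoli cell hedgehog, stood at 2.88 and 1.76 in juvenile testis, against -3.0 and -3.37 in ES cells, and Wt1 stood at 0.03 and -1.18 in juvenile testis, against -3.46 and -3.33 in ES cells, with no call for Wt1 under normexp (0.51). Clu, which encodes clusterin, stood at 5.10 and 2.75 in juvenile testis, against 0.68 and 0.69 in ES cells, and lost its call without juvenile replicate 1 (2.07). Sox9, which directs Sertoli fate, measured 0.12 and -1.64 in juvenile testis, against -3.59 and -3.52 in ES cells, and was not called (adjusted p = 0.093), but was without E13.5 replicate 1 (7.5e-04). Juvenile replicate 1 was the higher of the pair for Inha, Dhh, Wt1, Clu and Sox9. The part of Sertoli cell RNA in the germ cell lists was not tested.

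The marker Rhox5, an X-linked homeobox gene, fell by 7.08 ± 0.69, and it dominates the summed signal of the Sertoli list, at 65.9 and 18.4 in juvenile testis and 429 and 482 in ES cells, in units of the array's 75th percentile. Without Rhox5 the sum was 59.3 and 16.7 in juvenile testis, against 7.48 and 7.61 in ES cells. The fibroblast list was higher in ES cells: 9 of 14 were called lower in juvenile testis and 2 higher, and the summed signal was 15.2 and 13.1 in juvenile testis, against 128 and 128 in ES cells. Col1a2 stood at 1.36 and 0.83 in juvenile testis, against 4.47 and 4.28 in ES cells, and Vim, which many cells express, stood at 2.15 and 0.57 in juvenile testis, against 6.14 and 6.25 in ES cells. The ES cells shared their dishes with feeder fibroblasts, and the part of feeder RNA was not tested. The peritubular list, with 5 of 6 lower, was led by the contractile genes Tagln (-5.17 ± 0.33) and Acta2 (-1.63 ± 0.29; 4 probes, -4.08 to -0.85), which fibroblasts also express. Of 6 Leydig markers 2 were called higher and 1, the hormone gene Insl3 (-3.75 ± 0.41), lower, against 26.3% and 27.5% of all genes. Under normexp 0 of these Leydig markers were higher and 4 lower. Their summed signal was 1.13 and 1.22 in juvenile testis, against 1.62 and 2.00 in ES cells. Of 9 macrophage markers 0 were called higher and 4 lower, with a sum of 0.724 and 0.770 in juvenile testis, against 4.08 and 4.22 in ES cells. One of these calls, Adgre1, was dim in both groups. Of 7 endothelial markers 1 was called higher and 4 lower, with a sum of 0.690 and 1.22 in juvenile testis, against 2.32 and 2.17 in ES cells, and the count of falls was 2 without juvenile replicate 1 and likewise without ES replicate 1 or ES replicate 2. Under normexp 0 endothelial markers were higher and 6 lower, and the one called higher above turned negative (-1.55, or -0.88 relative to that setting's median). Of 3 erythroid genes 2 were called higher and 1 lower, and under normexp 0 were higher and 2 lower. Normexp likewise called 0 higher in the fibroblast, peritubular and macrophage lists, with 13, 5 and 9 lower. Of all genes 26.3% were called higher and 27.5% lower, and under normexp 3610 and 9378 of 18876 were. Pecam1, counted with the endothelial list and known also from ES cells and PGCs, stood at -6.32 and -4.76 in juvenile testis, 0.37 and 0.41 at E13.5 and -0.95 and -1.15 in ES cells, with 1 of 2 juvenile arrays above background.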

How the data were processed

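Total RNA of Dazl-GFP-positive juvenile testis, E13.5 and ES cells was hybridised in one colour to Agilent mouse arrays. Per the file headers, Feature Extraction 9.1.3.1 gave each spot's intensity after background subtraction and spatial detrending, with flags for spots well above background and for outliers, and these intensities were deposited per array and not scaled between arrays. A deposited table of the authors' group means of intensity, scaled to the array median per its header, was used only as an alternative.

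Signals were taken to log2 over each array's 75th percentile, outlier spots were masked (172 probes dropped), and probes well above background on both arrays of at least 1 of 9 groups were kept (28114 of 41174). The probe with the highest mean stood for its gene, and 6521 genes had several. Spot accessions and symbols were matched to RefSeq names, which gave 15446 of the 18876 genes a current symbol. The 18 arrays entered 1 model per gene (limma 3.58.1, R 4.3.3; lmFit, contrasts.fit and eBayes), with Benjamini-Hochberg adjustment over all genes tested and calls under 0.05. The steps were tested on simulated data. The number of arrays limits the precision, and 364 genes were dim in both groups compared.

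Genes named are Dazl and Ddx4, members of 29 gene lists (361 of 398 genes tested), and the 10 largest called rises and falls with non-overlapping groups, ranked by the bound where the lower group was below background. The groups, members and lists were chosen with earlier results of these data known. Alternatives were normexp with an offset of 50, quantile normalization, other filters, the mean over probes, the 4 arrays alone, slide or replicate number as a block, and leaving out single arrays.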

Additional observations from a re-analysis of the deposited data

Results flagged for a closer look

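For the 7 genes given here limma's test of juvenile testis against E13.5 was past the threshold, and the fitted changes of juvenile testis and of E13.5 from ES cells had opposite signs. Dppa3 (Stella) changed by -6.52 in juvenile testis and by 1.97 at E13.5, each against ES cells, a difference between the ages of -8.49 ± 0.35 (limma adjusted p = 1.1e-07; -9.25 without E13.5 replicate 1). Prdm1, the PGC specification factor, changed by -3.90 in juvenile testis and 1.81 at E13.5, a difference of -5.71 ± 0.42 (limma adjusted p = 2.8e-06; -6.43 without E13.5 replicate 1). Pecam1, a surface protein of PGCs and endothelium, changed by -4.49 in juvenile testis and 1.44 at E13.5, a difference of -5.93 ± 0.40 (limma adjusted p = 1.7e-06; -5.95 without E13.5 replicate 1). For Prdm1 and Pecam1 1 of 2 juvenile arrays was above background.

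The X-linked homeobox gene Esx1 differed between juvenile testis and E13.5 by 7.98 ± 1.03 (limma adjusted p = 1.5e-04; 9.69 without E13.5 replicate 1), with 1 of 2 E13.5 arrays above background. It stood at -2.94 and -6.35 at E13.5 and at -2.12 and -2.25 in ES cells. The Sertoli marker Clu differed by 4.42 ± 0.87 (limma adjusted p = 0.0024; 2.74 without E13.5 replicate 1). It stood at -2.17 and 1.18 at E13.5, against 0.68 and 0.69 in ES cells, so its E13.5 level lay below ES cells on replicate 1 alone and above them on replicate 2. The GDNF receptor Gfra1 and the Y-linked Usp9y were not above background in ES cells or at E13.5, so their position at E13.5 relative to ES cells was not measured. Their fitted differences between juvenile testis and E13.5, 5.34 (limma adjusted p = 4.4e-04) and 5.20 (limma adjusted p = 2.4e-07), are set against arrays below background and give no measured size. E13.5 replicate 1 also lacks Y-linked signal.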

How the results depend on the processing

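The count of 10163 genes called became 15888 with no filter on dim probes, where 27603 genes were tested and 5008 were higher and 10880 lower (31.5% higher). Under normexp it was 12988, of which 3610 were higher and 9378 lower (27.8% higher, against 48.9% in the setting reported), and the offset equals 44.6 and 48.5% of the 75th percentile on the ES arrays, against 10.5 and 11.5% on the juvenile arrays. Quantile normalization gave 10592 calls, the mean over probes 10123, the 4 arrays alone 7968, genes above background on all 4 arrays 7892, slide as a random block 10338, and the fit without E13.5 replicate 1 11273. Leaving out 1 of the 4 arrays gave 8006 to 9429. Replicate numbers did not pair the juvenile and ES arrays: the differences between replicates 1 and 2 in the 2 groups correlated at -0.05 across genes. With the replicate block 10281 genes were called. Of the list genes tested, 260 were called, 229 to 255 without 1 array. Named genes that were called higher and turned negative under normexp included Tdrd6 at -1.52, Msh4 at -1.04, Msh5 at -0.50, Aldh1a3 at -0.31, Spaca1 at -0.77, Ccna1 at -0.63 and Usp9y at -0.56. The median of all genes there was -0.67. Ccnb2 and Mcm5, called lower in the setting reported, turned positive, at 0.16 and 0.25. The cause was not tested. Of 182 named genes called, 121 matched the authors' deposited table, and all 121 had the same sign there. That table holds group means of the same arrays, so it is not independent evidence. The 364 genes dim in both groups, 200 of them called, have no measured fold.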
